A study of Arabidopsis thaliana with 15 samples.

Results

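Very wide H3K36me3 domains were selected on width alone from the deposited list of H3K36me3 peaks, and a peak of 4000 bp or more counted as such a domain. Of 13491 H3K36me3 peaks, 701 did so, which is 5.20% of the peaks and 16.1% of the sequence under them (4.16 Mb of 25.8 Mb). The remaining peaks were split into 3339 of 2000 to under 4000 bp and 9451 under 2000 bp. Because width chose the domains, their width, fold and p-value are given as a description.

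Chromatin of 8-day-old whole seedlings (Arabidopsis thaliana, Col-0) was cut with micrococcal nuclease (MNase) without crosslinking before immunoprecipitation (native ChIP-seq). The 3 marks H3K36me3, H3K4me3 and H3K4me2, total H3 and the MNase-cut input were each sequenced in wild type, in the fpa single mutant (allele fpa-7) and in the bdrs triple mutant, which gave 15 libraries with 1 per assay and genotype. FPA is an RNA-binding regulator of flowering time and of where transcripts end. The data were 3 peak lists, 1 per mark, each from the mark's pooled libraries set against total H3, also pooled. Which genotypes entered a pool is not stated, so there is no value per genotype, no replicate error and no known depth, and the comparisons made here are between sizes of domain, marks and genes. Whole seedlings mix many cell types, so 2 marks on 1 gene may come from different cells.

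H3K36me3 is trimethylation of lysine 36 of histone H3 and is laid down on the bodies of transcribed genes. In Arabidopsis most of it depends on the methyltransferase SDG8, listed under its symbol EFS in the gene table, and it lies nearer the start of a gene than in yeast or animals. H3K4me3 marks the first nucleosomes of active genes, and H3K4me2 lies further into the gene or on genes with low activity.

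Nearly every very wide domain was the mark of 1 long gene. A coding gene was counted as lying under a domain where at least 200 bp of it were covered, or 50% of a gene shorter than 400 bp. By this count 638 of the 701 domains (91.0%) lay on a single coding gene, beside 93.3% of all H3K36me3 peaks, so a single gene was no more common under wide domains than under others. Another 51 domains reached 2 genes, 10 reached 3 genes and 1 reached 4 genes. The last domain, of 4575 bp at chromosome 3 from 9244348 to 9248922, lay on the transcribed pseudogene AT3G25495. All coordinates are those of the peaks on TAIR10, counted from 1.

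The width of a domain followed the length of its gene. The median width was 5073 bp (quartiles 4491 and 6407 bp), with 332 domains of 4000 to under 5000 bp, 289 of 5000 to under 8000 bp and 80 of 8000 bp or more. The genes under single-gene domains had a median length of 7252 bp. Across 635 of these domains, those that also overlapped an H3K4me3 peak, width and gene length had a Pearson r of 0.95 and a Spearman rho of 0.85. These points come from 1 list and share its lower limit on width, and a domain on 1 gene can hardly be much wider than the gene, so the figures are descriptive.

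**Figure D1:**
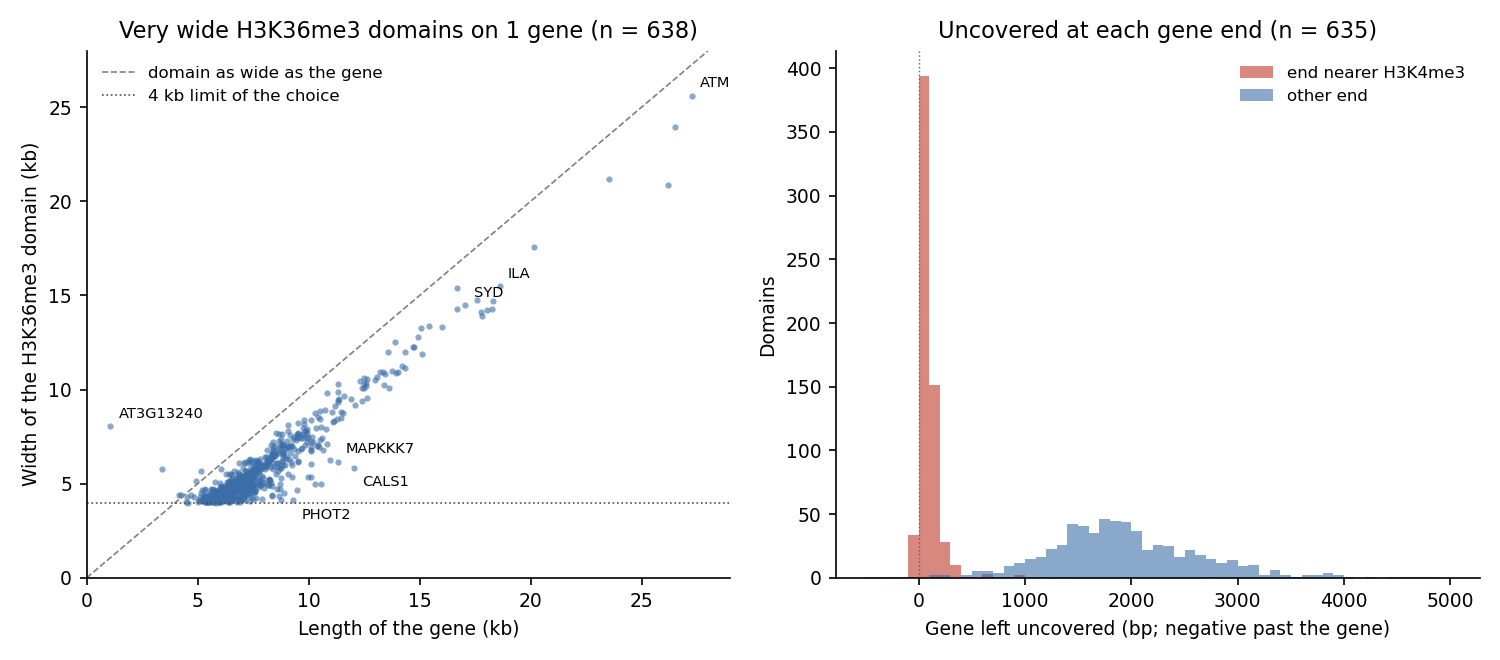
Left, width of each very wide domain on a single gene (638 domains) against the length of that gene, both in kb, with the dashed line marking a domain as wide as its gene and the dotted line the 4 kb limit. Right, histogram in 100-bp bins of the bp of gene left uncovered at the domain's H3K4me3 end and at its other end (635 domains, of which 3 and 5 lie outside the axis): the medians are 67 bp and 1860 bp.

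The domains did not sit centrally on their genes. Since the gene table gives no strand, each domain was oriented by the end nearer the summit of its strongest H3K4me3 peak, called the H3K4me3 end. At that end the domain stopped a median of 67 bp from the end of the gene (quartiles 35.5 and 114 bp), and in 580 of 635 domains the distance was within 200 bp. At the other end a median of 1860 bp of the gene carried no domain (quartiles 1490.5 and 2333.5 bp), and 591 domains stopped at least 1000 bp short. The gap was the longer one at that other end in 628 of 635 domains. This placement was not particular to very wide domains. Among single-gene peaks with H3K4me3, the longer gap lay there in 2999 of 3074 of the middle width class. In the narrow class it did so in 7842 of 8852. The edge at the H3K4me3 end was within 200 bp of the gene end in 2651 and 7150 of these peaks.

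The stretch outside the domain at the far end was longer in wider domains, though within the very wide class it rose less than width did. The median width of single-gene domains was 4440, 5982 and 10392 bp in the 3 size groups. Another listed H3K36me3 peak may lie in this stretch. The median stretch was 1785 bp for domains of 4000 to under 5000 bp, 1860 bp for 5000 to under 8000 bp and 2246 bp for 8000 bp or more. It was 1258 bp for single-gene H3K36me3 peaks of 2000 to under 4000 bp and 627 bp for narrower peaks. The share of the gene under the domain accordingly differed by size, with a median of 74.0% over all very wide domains, and 70.0%, 75.7% and 82.5% in the 3 size groups. Over the 635 domains, chosen by width and so by part of the gene's length, the uncovered length had an r of 0.44 and a rho of 0.58 with gene length. The values were 0.87 and 0.86 over 3074 single-gene peaks of 2000 to under 4000 bp, and 0.85 and 0.82 over 8852 narrower ones. The uncovered length is what the peak and the other gap leave of the gene. Where width is confined it therefore rises with gene length by construction. These values depend on the width limits and are no comparison between classes.

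The widest domain covered ATM, the kinase that signals DNA double-strand breaks. It measured 25621 bp on a gene of 27265 bp, from 17801302 to 17826922 on chromosome 3, and covered 94.0% of the gene. It began 13 bp inside the H3K4me3 end of the gene and stopped 1631 bp before the other. Its single H3K4me3 peak was 514 bp wide and lay over 1.93% of the domain, and the summits of both marks were 2 bp apart.

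ILA, a HEAT-repeat protein needed for immunity, carried a domain of 15493 bp at chromosome 1 from 24066541 to 24082033, over 83.3% of its gene. SYD, a SWI/SNF chromatin remodelling ATPase, carried 14468 bp (chromosome 2 from 12056185 to 12070652) over 84.6%, with no H3K4me2 peak. SWEETIE, which acts in carbohydrate metabolism, carried 14279 bp over 85.6%. These 3 domains stopped 1719, 2627 and 2308 bp short of the end of the gene away from H3K4me3. ILA differed at its H3K4me3 end, where 1395 bp of the annotated gene lay outside the domain.

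TIL1, the catalytic subunit of DNA polymerase epsilon, carried a domain of 14239 bp, and TOR, the kinase that couples growth to nutrients, a domain of 14140 bp. BIG, a very large protein needed for auxin transport, carried 13901 bp over 78.1% of a gene of 17804 bp and had the longest uncovered stretch of the 9 named genes with an H3K4me3 end, 3873 bp. GSL10, a callose synthase, carried 13286 bp. EMB3142, needed for embryo development, carried 12773 bp. SAB, which acts in cell expansion, carried 12267 bp. Each of these last 3 domains stopped between 1714 and 2357 bp before the end of the gene away from H3K4me3. Wider than most of these, but without a gene symbol in the table, were the domains on AT1G48090 (23970 bp), AT4G17140 (21184 bp), AT1G67120, the midasin gene MDN1 of ribosome assembly (20860 bp), and AT5G24740 (17583 bp).

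**Figure D2:**
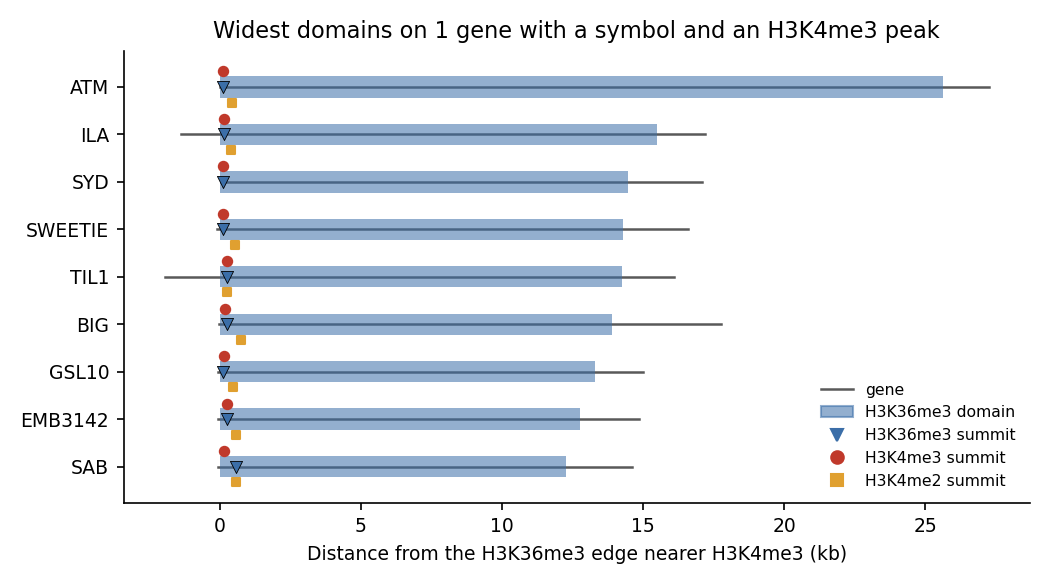
Layout of the 9 widest domains on 1 gene that has a symbol and an H3K4me3 peak, in kb from the edge of the domain nearer H3K4me3. The thin line is the gene, the bar the domain and the 3 symbols the summits of H3K36me3, H3K4me3 and H3K4me2 (SYD has no H3K4me2 peak): the summits sit together at the left, and every domain stops 1631 bp or more before the right end of its gene.

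The 4000 bp limit cuts through a continuous range of widths. Just inside it lay the domains of SBE2.2, a starch branching enzyme (4003 bp), PLDBETA1, a phospholipase D (4001 bp), and AT1G15280 (4000 bp). Just outside lay VLN4, an actin-binding villin (3992 bp), ABCG32, a transporter for the cuticle (3991 bp), and PLDGAMMA3 together with AT4G11845 (3988 bp). FPA and its target FLC were also outside. FPA carried a peak of 3327 bp on a gene of 6009 bp (chromosome 2 from 18027920 to 18031246), and FLC, the flowering repressor that FPA keeps low, a peak of 3302 bp on a gene of 6067 bp (chromosome 5 from 3176101 to 3179402). These peaks covered 55.4% and 54.4% of their genes and left 2673 and 2719 bp at the far end.

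Both H3K4 marks were present at very wide domains, but as short blocks. At least 1 bp of an H3K4me3 peak overlapped 698 of the 701 domains (99.6%), beside 99.8% of all H3K36me3 peaks. An H3K4me2 peak overlapped 689 domains (98.3%), beside 94.5% of all. With the stronger 50% of H3K4me2 peaks alone the share was 46.1%. The H3K4me3 peak was a median of 851 bp wide at very wide domains, 893 bp at peaks of 2000 to under 4000 bp and 862 bp at narrower ones. Among very wide domains it was 880 bp, 848 bp and 798 bp wide in the 3 size groups, so the H3K4me3 block did not widen with the domain. Width of the domain and of its H3K4me3 peak had an r of −0.07 and a rho of −0.04 over the 635 domains.

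H3K4me2 blocks behaved alike. Their median width was 1134 bp at very wide domains, 1234 bp at the middle class and 1040 bp at the narrow one, and within the very wide class it was 1161, 1111.5 and 1134 bp by size. The correlation with domain width was −0.07 (rho −0.05). Over single-gene peaks of the middle class the r of block and peak width was −0.05 for H3K4me2 and −0.10 for H3K4me3. In the narrow class it was 0.25 and 0.14, so there the blocks were somewhat wider in wider peaks. With blocks of like median width in each class, the share of the domain that they covered was lower in wider domains. The median share under H3K4me3 was 15.7% in very wide domains, 34.9% in the middle class and 62.7% in the narrow class, and for H3K4me2 it was 21.9%, 49.2% and 73.5%. With the stronger 50% of H3K4me2 peaks, the median of the very wide class was 0%. In domains of 8000 bp or more, H3K4me3 lay over 7.78% and H3K4me2 over 10.0%. Since width is the denominator of these shares and also the rule, the difference between classes is given without a test.

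**Figure D3:**
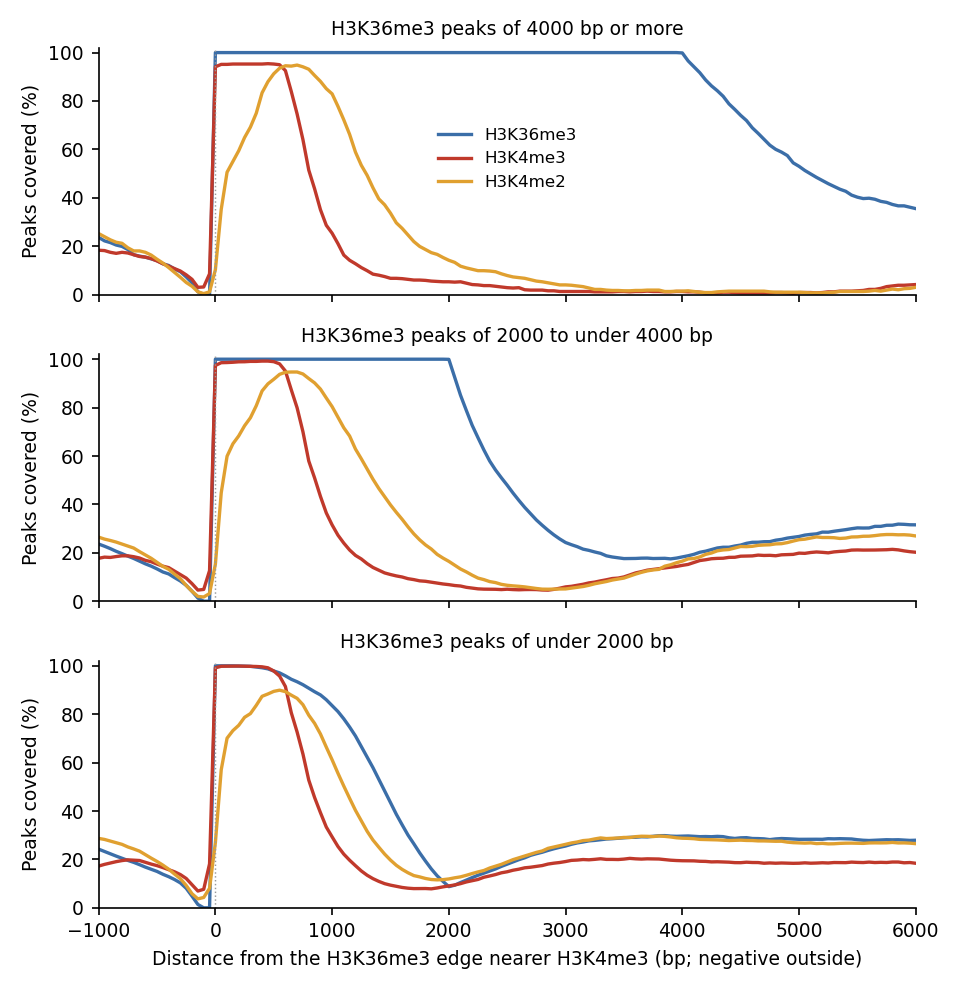
Percent of H3K36me3 peaks covered by a peak of each mark, against distance in bp from the edge nearer H3K4me3 (0 is that edge, positive values run into the peak), in 3 panels from top to bottom for peaks of 4000 bp or more, of 2000 to under 4000 bp and of under 2000 bp. A neighbouring peak of the mark counts too. In the very wide class the H3K4me3 line falls to 25.4% at 1000 bp and the H3K4me2 line to 33.7% at 1500 bp, while H3K36me3 covers every domain up to 4000 bp by the width rule.

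Along the domain, H3K4me3 came first and H3K4me2 second. At the H3K4me3 edge itself, 94.1% of very wide domains lay under H3K4me3 and 10.3% under H3K4me2. At 500 bp into the domain the values were 95.3% and 91.3%. At 1000 bp they had parted, with 25.4% under H3K4me3 and 83.0% under H3K4me2. At that distance the middle class had 31.5% and 80.4%, and the narrow class 29.3% and 61.2%. At 2000 bp the values of very wide domains were 5.30% and 14.2%, and at 3000 bp 1.29% and 4.01%. Beyond the first 2000 bp, then, most of a very wide domain carried H3K36me3 with neither listed H3K4 mark.

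The strongest point of H3K36me3 lay near the H3K4me3 edge of the domain, as in the other classes. The H3K36me3 summit, the position of highest enrichment as the caller gave it, lay a median of 259 bp from the H3K4me3 edge, beside 256 bp in the middle class and 241 bp in the narrow class. As a share of width this was 4.72%, 10.2% and 17.9%. With a like distance in bp in each class, the order of these shares is set by the width limits. The summit lay within 500 bp of the edge in 600 very wide domains (85.6%), beside 87.4% and 92.4% in the other classes. In 4 domains it lay past the middle. Of these 3 lay on several genes, and the other was on AT3G56410, at 96.2% of the width, where more than 1 H3K4me3 peak was listed.

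The H3K4me2 summit mostly lay deeper in the domain than the H3K4me3 summit, as in the other classes. H3K4me3 had its summit a median of 211.5 bp from the edge and H3K4me2 at 578.5 bp, farther in than H3K4me3 in 633 of 688 domains that had both. In the middle class the medians were 200 and 570 bp, with H3K4me2 farther in for 2990 of 3229 peaks. In the narrow class they were 179 and 537 bp, with 7725 of 8818 peaks. The H3K36me3 and H3K4me3 summits were a median of 10 bp apart, and within 200 bp of each other in 599 domains (85.4%, beside 85.8% and 87.6% in the other classes). The distance of the H3K36me3 summit had an r of −0.04 with domain width over the 635 domains.

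The summits also fell into steps, a pattern noticed only after the values were seen. In bins of 25 bp, H3K36me3 summits of very wide domains were most frequent at 100 to 124 bp (84 domains), 250 to 274 bp (98), 400 to 424 bp (44) and 550 to 574 bp (19). Between these lay minima of 19 domains at 175 to 199 bp, 8 at 325 to 349 bp and 3 at 475 to 499 bp. H3K4me3 summits were most frequent at 100 to 124 bp (119 domains), and H3K4me2 summits at 550 to 574 bp (88 domains), with no H3K4me2 summit at all from 300 to 349 bp. Peaks of 2000 to under 4000 bp had H3K36me3 maxima in the same 4 bins, with 353, 440, 153 and 59 peaks. In peaks under 2000 bp the second maximum lay 1 bin nearer the edge, at 225 to 249 bp (1305 peaks, beside 1131 at 250 to 274 bp), and the other 3 bins held maxima of 1170, 469 and 110 peaks. MNase spares DNA wrapped on nucleosomes, which as background repeat along a gene at regular spacing, and no test of that relation was made.

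**Figure D4:**
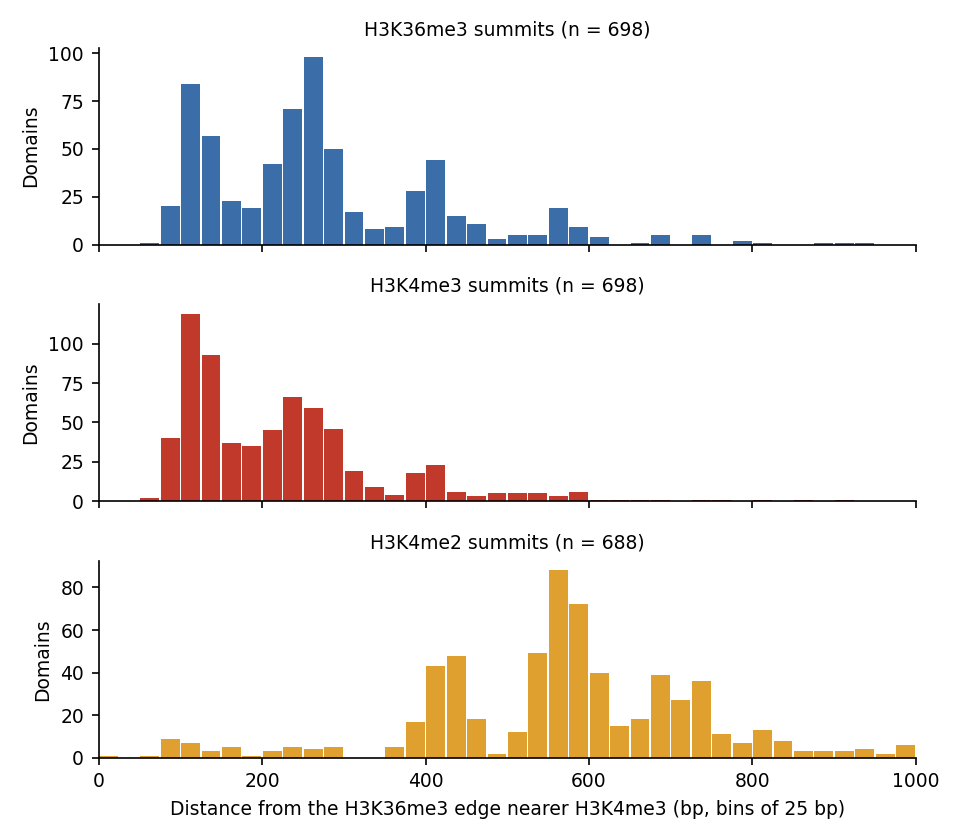
Number of very wide domains by distance in bp of the H3K36me3, H3K4me3 and H3K4me2 summit from the H3K4me3 edge, in 25-bp bins (698, 698 and 688 domains). H3K36me3 and H3K4me3 summits pile up at 100 to 124 bp and near 250 bp, and H3K4me2 summits at 550 to 574 bp.

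The 3 domains without H3K4me3 were those of TOR, of GCN2, the kinase that phosphorylates eIF2α, and of AT4G32920. On TOR, a second H3K36me3 peak of 1573 bp began 160 bp from the domain and overlapped the gene's H3K4me3 peak. On GCN2, the domain of 4976 bp was followed at 176 bp by an H3K36me3 peak of 2791 bp and farther off by another of 1173 bp, and each of these overlapped an H3K4me3 peak. On AT4G32920, a peak of 956 bp lay 209 bp from the domain of 5515 bp, and the H3K4me3 peak was 203 bp away. All 3 genes thus had another listed H3K36me3 peak that overlapped H3K4me3, apart from the wide domain.

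In 15 domains (2.14%) there were at least 2 H3K4me3 peaks. This was so in 2.76% of the middle class, 0.349% of the narrow class and 1.04% of all H3K36me3 peaks, so it was no more common here than in the middle class. Of the 15 domains, 12 lay on 2 or more genes. The share of very wide domains was 13.0% when peaks less than 200 bp apart were joined first, and 0.571% with the stronger 50% of H3K4me3 peaks. The other 3 lay on a single gene, namely AT1G01320, RDR6, an RNA-dependent RNA polymerase of the small RNA pathway, and AT3G56410. The domain over the most genes, 4795 bp at chromosome 3 from 2397719 to 2402513, reached AT3G07530, ATG10, an enzyme of autophagy, GLR1.4, a glutamate receptor-like channel, and AT3G07522. No H3K4me2 peak overlapped 12 domains. They were those of AGO1, TOR, SYD, ATMIN7, CEF, VLN3, GCN2, WRKY19, AT4G32640, SRFR1, MYA2 and FRA1.

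PHOT2, a blue-light receptor, was at the other extreme. Its domain of 4113 bp was 95.9% covered by H3K4me2 and 54.0% by H3K4me3, and it covered 44.3% of a gene of 9287 bp. All listed H3K36me3 peaks together covered 6555 bp of that gene. PAA2, a copper transporter of chloroplasts, had 68.0% of its domain under H3K4me2. In 7 single-gene domains the stretch of gene outside the domain was longer at the H3K4me3 end. Among them TIL1 had 1953 bp at that end and 1847 bp at the other, RXW8 2714 and 1652 bp, and MAPKKK7, a protein kinase, 3507 and 1629 bp. Such stretches could hold other listed peaks. On TIL1, H3K36me3 peaks covered 15471 bp of the gene in all, beside 14239 bp under the domain, and H3K4me3 peaks covered 1919 bp. The domain of 8063 bp counted on AT3G13240 ran past this gene of 1069 bp onto the neighbouring pseudogene AT3G13250. The domain counted on AT1G28710 covered 14.3% of that gene, and the rest of its 5767 bp took in tRNA genes. Near-identical copies of such genes may make the placing of reads uncertain, which was not tested.

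The fold over total H3 that the caller gave is the authors' own value for each peak. As a single value per peak, it need not hold over the whole width of a domain. Its median was 6.04 in very wide domains (quartiles 5.32 and 6.66), 5.97 in the middle class and 5.50 in the narrow class. Of the very wide domains, 63.3% lay above the median fold of all H3K36me3 peaks. Within the very wide class, width and fold had an r of 0.02 and a rho of 0.06 over the 635 domains, while over 8852 single-gene peaks under 2000 bp they had an r of 0.36 and a rho of 0.33. The range ran from 2.92 on AT3G20010 to 8.94 on AT5G20840, and ATM, the widest, had 4.14. Only 2 very wide domains were among the 100 peaks with the highest −log10 p. The highest −log10 p within the class were 431 on AT5G14720, 429 on AT5G20840 and 413 on EIF4G, a translation initiation factor. The lowest were 56.3 on AT3G20010, 56.3 on CTF18, which acts in sister chromatid cohesion, and 64.0 on AT1G28710.

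Seen from the genes, very wide domains were found mainly on long ones. Of 27444 nuclear coding genes, 773 (2.82%) lay under a very wide domain, and of the 3250 genes of 4000 bp or more, 679 (20.9%) did. With the stronger 50% of H3K36me3 peaks the latter share was 13.0%, and with width limits of 3000 and 5000 bp it was 38.6% and 11.2%. The shares of 2.82% and 20.9% are a first background for the gene lists below. They are not matched for length, and the share depended strongly on gene length, so a list of longer genes has a higher background. By gene length the share was 1.43% of 1611 genes of 4000 to under 5000 bp, 13.1% of 758 genes of 5000 to under 6000 bp, 54.2% of 594 genes of 6000 to under 8000 bp and 83.6% of 165 genes of 8000 to under 10000 bp. It was 77% of 100 genes of 10000 to under 15000 bp and 90.9% of 22 longer genes. A gene shorter than 4000 bp can lie under such a domain only where the domain runs past the gene, and 94 such genes did.

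The share of genes with any H3K36me3 peak moved far less over the same lengths, from 70.8% at 4000 to under 5000 bp to 81.8% at 6000 to under 8000 bp and 87.9% at 8000 to under 10000 bp. H3K4me3 was present on 82.7%, 92.9% and 95.2% of those genes. Among the 20 longest coding genes 18 held a very wide domain, among the 50 longest 43 and among the 100 longest 77. The median length of gene without H3K36me3 in genes that had the mark was 1831 bp at 4000 to under 5000 bp and 2161 bp at 8000 to under 10000 bp.

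**Figure D5:**
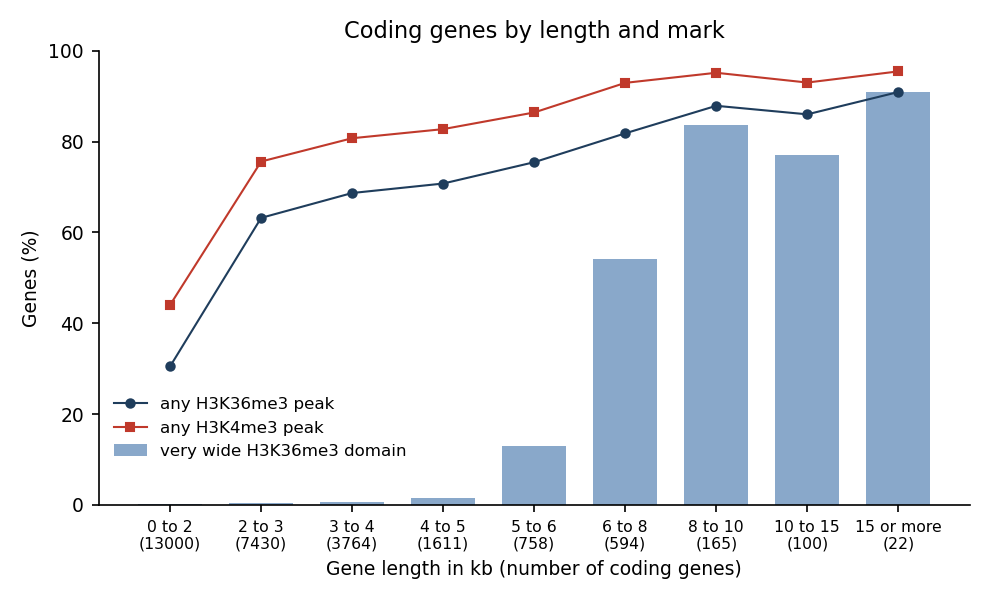
Percent of coding genes in each gene-length bin (kb) that hold a very wide H3K36me3 domain (bars), any H3K36me3 peak or any H3K4me3 peak (lines). The bars rise from 1.43% at 4000 to under 5000 bp to 83.6% at 8000 to under 10000 bp, while any H3K36me3 runs from 70.8% to 87.9%.

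Long genes without a very wide domain fell into several kinds. Of the 3250 genes of 4000 bp or more, 1770 (54.5%) held only narrower H3K36me3 peaks, and they were shorter, with a median length of 4706.5 bp against 7176 bp for the holders. A further 375 (11.5%) had H3K4me3 but no H3K36me3, 255 (7.85%) had H3K4me2 only and 171 (5.26%) had no listed peak of the 3 marks. The lists leave out some called peaks, so a gene without a listed peak may carry a weaker one. The longest genes with narrower peaks included ACC2, an acetyl-CoA carboxylase (12636 bp with a peak of 3579 bp), and POK2, a kinesin of cell division (12530 bp with 2764 bp).

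Wide H3K4me2 was rare on the holders of very wide domains. H3K4me2 peaks covered 3000 bp or more of the gene in 155 of the 3250 long genes (4.77%). Among holders of a very wide domain this was so in 6 of 679 (0.884%), among genes with narrower H3K36me3 in 56 of 1770 (3.16%), and among genes with H3K4me3 but no H3K36me3 in 60 of 375 (16%). Among genes with H3K4me2 alone it was so in 33 of 255 (12.9%), so most long genes without H3K36me3 had no wide H3K4me2 either. The 6 holders were PHOT2, ICU2, AT1G15290, TIL1, PAA2 and DRP3A. Long genes without H3K36me3 but with wide H3K4me2 included TIL2, the relative of TIL1 (13184 bp, H3K4me2 over 7673 bp), and the callose synthase genes CALS5 (12062 bp, 7773 bp), CalS7 (11032 bp, 5661 bp) and GSL04 (10471 bp, 6272 bp). Other long genes without H3K36me3 had little H3K4me2, among them AT1G58602 (19695 bp, 2047 bp), AT2G34100 (13956 bp, 990 bp) and the callose synthase genes GSL09 (16053 bp, 830 bp) and GSL11 (11154 bp, 2156 bp).

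In all, 16 groups of genes were examined by name. They were compiled with earlier results of these data known, and many of their members are long. The counts are descriptions, beside 2.82% of all coding genes and 20.9% of those of 4000 bp or more. Median gene length ran from 1635 bp for photosynthesis to 8840 bp for the ubiquitin ligases. A list of long genes should be read against 54.2% of genes of 6000 to under 8000 bp and 83.6% of those of 8000 to under 10000 bp. A count above 20.9% is thus no sign that a list stands out for its length. With a width limit of 5000 bp, the counts given below became 4 for DNA polymerases and chromosome structure, 3 for DNA damage, 5 for RNA polymerases, 2 for small RNA genes and 0 for photoreceptors. With a limit of 3000 bp, they became 9 for histone methylation, 8 for nuclear pores, 8 for small RNA genes, 11 for callose and cellulose synthases, 3 for photoreceptors, 4 for the autonomous pathway and 1 for photosynthesis. Of the chromatin remodelling ATPases, which move or exchange nucleosomes, 10 of 19 held a very wide domain (10 of 18 long ones). After SYD came CHR5 (10305 bp), ATRX (7901 bp) and PKL (7680 bp), a repressor of embryonic traits. The long members without one included PKR2, a relative of PKL with no H3K36me3 peak, and CHR11, with a peak of 3786 bp.

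Of the large subunits of RNA polymerases, 8 of 9 held a very wide domain. These were NRPC2 (8816 bp) and NRPC1 (6993 bp) of polymerase III, NRPA1 (6878 bp) and NRPA2 (5728 bp) of polymerase I, and both NRPB2 (4652 bp) and NRPB1 (4550 bp) of polymerase II. NRPD1B, the largest subunit of polymerase V (5359 bp), and NRPD2A, a subunit shared by the plant-specific polymerases (4571 bp), also did. NRPD1A, the largest subunit of polymerase IV, was the exception, with no listed H3K36me3 peak on a gene of 7905 bp and H3K4me3 over 1050 bp.

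DNA polymerases and proteins of chromosome structure held a very wide domain in 10 of 14 genes. Besides TIL1 these included the cohesin subunits TTN8 (7673 bp) and TTN7 (6557 bp) and EMB2773 (7466 bp). TOPII, a type II topoisomerase, had no listed H3K36me3 peak but H3K4me2 over 5940 bp. Of the genes of DNA damage response and repair and the kinases related to ATM, 5 of 19 did (5 of 17 long ones), among them RAD50 (6644 bp), a subunit of the complex that binds broken ends, and RAD5 (4765 bp). ATR, the kinase that responds to stalled replication, carried a peak of 1398 bp on a gene of 11171 bp, while its relatives ATM and TOR had 25621 and 14140 bp. REV3, the catalytic subunit of DNA polymerase zeta, had no listed H3K36me3 peak.

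Of the ubiquitin ligases of the HECT and N-end families, which tag proteins for degradation, 8 of 10 held a very wide domain, and these were all 8 long members. They included BIG, UPL2 (10958 bp), UPL1 (10949 bp) and PRT6 (7788 bp). The 2 without one were shorter genes, UPL5 (peak of 2606 bp) and PRT1 (1432 bp). Vesicle traffic genes did so in 10 of 17 (10 of 16 long ones). They included BIG, SPI (11878 bp), ATMIN7 (8821 bp) and the exocyst subunit SEC8 (7651 bp). GN, which sorts auxin carriers, had 3471 bp. Nuclear pore and transport genes held a very wide domain in 5 of 9 (5 of 8 long ones). They included NUA (10957 bp), the nucleoporin NUP160, symbol SAR1 in the table (7395 bp), and the exportins XPO1A (6400 bp) and XPO1B (5797 bp).

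Genes of the cytoskeleton and its motors held a very wide domain in 17 of 26 cases. MOR1, which binds microtubules, had 11241 bp, SPK1, an activator of ROP GTPases, 10820 bp, and the myosins XIK and XIH 9448 and 8557 bp. The myosin XIC had no H3K36me3 and no H3K4me3 peak but H3K4me2 over 6396 bp, and its relative XIJ had no listed H3K36me3 peak. Callose and cellulose synthases split in the same way, with 6 of 19 holding a very wide domain. All 6 were callose synthases, led by GSL8 (13843 bp), GSL10 (13286 bp), GSL12 (9355 bp) and CALS1 (5850 bp). No cellulose synthase did, and the widest was CESA1 with 3961 bp on a gene of 6355 bp. GSL03, a callose synthase that no name in the list matched, had 9476 bp, and it is given after its value was seen.

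The writers, readers and erasers of histone methylation held a very wide domain in 4 of 19 cases (4 of 12 long ones), and all 4 encode methyltransferases. EFS, the H3K36 methyltransferase itself, carried 7444 bp on a gene of 9533 bp. SDG2 carried 9108 bp, SDG25 6227 bp and ATX2 5758 bp, and these act mainly on H3K4. ATX1 (AT2G31650) was not matched, since 2 genes share its symbol, and carried 4496 bp, again a value seen beforehand. The demethylases ELF6 and REF6 had narrower peaks of 3267 and 2793 bp on shorter genes. In DNA methylation, 3 of 12 genes did (3 of 8 long ones). These were the demethylases DME (7335 bp) and DML2 (5106 bp) and the methyltransferase CMT2 (5009 bp). MET1, which maintains CG methylation, and DML1, the demethylase also called ROS1, had no listed H3K36me3 peak but H3K4me2 over 4896 and 4198 bp.

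Small RNA genes held a very wide domain in 5 of 16 cases (5 of 12 long ones). These were the Dicer genes DCL4 (6933 bp), DCL1 (5926 bp) and DCL2 (4368 bp), the slicer AGO1 (4673 bp) and RDR6 (4415 bp). DCL3, on a gene of 7473 bp, had a peak of 1375 bp. Photoreceptors did so in 1 of 14 cases (1 of 8 long ones), PHOT2, and PHOT1 had a peak of 703 bp on 7490 bp. In the autonomous flowering pathway, to which FPA belongs, 1 of 9 did (1 of 7 long ones). This was FCA, an RNA-binding protein, with 6799 bp on a gene of 8385 bp.

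The photosynthesis and Polycomb groups had no very wide domain. None of 19 photosynthesis genes held one, and no gene in that group reached 4000 bp, although 18 of the 19 had an H3K36me3 peak. None of 16 regulators repressed by Polycomb did, and in that group 1 gene, KNAT6, had any H3K36me3 peak (1368 bp). The 3 long genes among them, KNAT2, AG and KNAT6, are too few to set beside the background.

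Very wide domains were spread over the genome. Chromosomes 1 to 5 held 186, 100, 137, 110 and 168 of them, which is 4.96% to 5.42% of the H3K36me3 peaks of a chromosome and 20.0% to 22.0% of its long genes.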

How the data were processed

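The series held 15 libraries of 5 assays in 3 genotypes, grouped by assay and genotype from the labels, and 3 peak lists, 1 per methylation mark, which the labels name for the 9 libraries of the marks. The submitters' processing notes name MACS2 (no version), R 3.3.2, SAMtools 1.3, Picard 2.2.4, Bowtie2 2.2.6, Trimmomatic 0.33 and the TAIR10 genome, with no role or setting. The peak names in the deposited lists say that each was called on pooled libraries against pooled H3. The authors' fold is a ratio of mark to H3 from the caller. The deposited −log10 p comes from it too, and the deposited score equals that −log10 p multiplied by 10, without decimals. The deposited summit offset is a distance in bp from the start of the peak. Deposited peak numbers run to 21492 for H3K36me3, of which 62.8% are listed. The rule of that choice is not stated, and depth is unknown.

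Peaks were placed on 27444 nuclear coding genes of a RefSeq gene table (TAIR10.1, without strand), and 99.3% of domain sequence lay in genes with no offset between builds, more than at offsets of 100 to 1000 bp. Peaks overlapped where they shared 1 bp or more. Python 3.11.15 with pandas 2.3.3, numpy 2.4.6, scipy 1.17.1 and matplotlib 3.10.9 was used, and the interval steps were tested on simulated data. The members and gene lists were chosen with earlier results of these data known. Of 302 list names, 218 matched a symbol and 54 a synonym, 26 matched none and 4 matched another gene and were left out. The text names the 10 widest domains on a single gene with a symbol, the 3 domains just inside and just outside the limit, those with the highest and lowest −log10 p or H3K4me2 cover, those with the most H3K4me3 peaks or genes or no H3K4me3, FPA and FLC, the longest genes without a domain, and the widest and the longest unmarked members of each list. Further genes that break a pattern were named after their values were seen. No test was made, since pooled lists have no replicates and regions are not replicates. The alternatives tried were width limits of 3000 and 5000 bp, joining of peaks less than 200 bp apart, an overlap of at least 200 bp, a gene counted only where at least 50% was covered, and the stronger 50% of peaks by −log10 p. Planned descriptions of promoter motifs and protein length were not made, as no such tables were used here.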

Additional observations from a re-analysis of the deposited data

How the results depend on the processing

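Of 76 alternative values computed, 39 stayed close to the main value and 37 moved, 12 of them counts for a gene list (of 32). A share or median was taken as moved when it left the 95% interval of the main value over domains or genes. A count was taken as moved when it differed by over 1.5 times. Members of a pooled list are not replicates, so this interval served only as a yardstick and does not measure replicate error. A minimum width of 3000 bp gave 1369 domains and 5000 bp gave 369. With 3000 bp, 38.6% of long genes held a domain, 20.4% of the domain lay under H3K4me3 and 28.2% under H3K4me2, 70.0% of the gene was covered, the summit lay at 6.10% of the width and 1754.5 bp of the gene were left at the far end. With 5000 bp these were 11.2%, 12.8%, 17.5%, 76.8% and 3.91%, in the same order and without the far end. The far-end alternatives were chosen after seeing the data. Joining peaks under 200 bp apart gave 786 domains, with 77.9% on a single gene, 13.0% with 2 or more H3K4me3 peaks, 22.4% of long genes, 17.1% of the domain under H3K4me3, 23.4% under H3K4me2 and the summit at 5.16%. With only the stronger 50% of the peaks of each H3K4 mark, 73.0% of domains overlapped H3K4me3 and 46.1% H3K4me2, 0.571% had 2 or more H3K4me3 peaks, and the medians covered were 13.3% and 0%. With the stronger 50% of H3K36me3 peaks, 13.0% of long genes held a domain. No paired analysis was possible because the lists are pooled and hold no value per genotype or replicate. Pooling, unknown depth, missing strand and unlisted weaker peaks limit every value. Fold and −log10 p were shared with another peak in 70.3% of the domains, beside 68.8% of all H3K36me3 peaks.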

Other observations

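Some very wide domains were neighbours. In 36 pairs, which took in 71 domains, less than 5000 bp lay between them. The H3K4me3 ends faced each other in 10 pairs, with a median gap of 1713.5 bp, faced away from each other in 7 pairs (3371 bp) and lay on the same side in 19 pairs (2575 bp). The closest pair was RAD5, which acts in DNA damage tolerance, and AT5G22760, with 4765 and 4210 bp and a gap of 134 bp between their H3K4me3 ends. The domains of GSL12 and EMB3011 lay 991 bp apart and those of ATX1 and SAD2 1901 bp. Domains also overlapped genes that make no protein, namely 31 long noncoding RNA genes under 27 domains, 22 tRNA genes under 3 domains and 5 microRNA genes.

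In the deposited numbering of H3K36me3 peaks, 222 very wide domains had both neighbouring numbers listed and 479 had at least 1 of them missing. A peak missing from the list beside a domain would not be seen here, and 9 genes had 4000 bp or more of H3K36me3 in several listed peaks without a single peak of that width.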
